A study of Mus musculus with 18 samples.

Results

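Immature and mature neutrophils from the zymosan-inflamed lung of wild-type mice were compared at the RNA level, in 6 of the 18 libraries of the series. These are the 3 libraries labelled WT, zymosan and CD101neg (immature) and the 3 labelled WT, zymosan and CD101pos (mature). They were taken by genotype, treatment and sort label alone, and no measured value entered the choice. The animals were female C57BL/6 mice of 13 weeks, given 20 µg zymosan through the nose and examined 24 h later. Lungs were digested with collagenase and DNase, and live CD45+ CD11b+ Ly6G+ cells were sorted by CD101. Beside them stand 3 libraries of CD101pos cells from naive WT mice, which were male and 12 weeks old, and 6 libraries, 3 CD101neg and 3 CD101pos, from CGD mice (genotype CGD/CYBB KO), which lack the oxidase subunit encoded by Cybb. These CGD mice were female C57BL/6 of 13 weeks too and had the same 20 µg of zymosan 24 h before. CD101pos libraries of naive CGD mice (3, male, 12 weeks) entered only the fit over all 18 libraries. CD101neg cells of naive mice were not analysed here. The labels do not say whether the 3 libraries of a group came from separate mice, nor whether CD101neg and CD101pos sorts of one number came from one mouse, so p-values measure the spread between these libraries.

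Neutrophils are made in the bone marrow in stages. Granule proteins are transcribed in order, the secondary granule genes being switched off before the cell is released, while receptors for chemokines and G-CSF and, in the mouse, CD101 appear late. Zymosan is a cell wall preparation of yeast, rich in beta-glucan, that engages Dectin-1 and TLR2 and triggers phagocytosis and the oxidative burst. Among the programmes a phagocyte can switch on after such a meal are the NRF2 response, in which electrophiles and oxidants release the factor NRF2 from its inhibitor KEAP1 to drive antioxidant genes, and the lysosomal and autophagy genes controlled by the TFEB and MITF family of factors, which bind E-box sequences.

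The deposited values are read counts per gene. The CD101neg libraries held 57.1, 56.0 and 51.9 M counts and the CD101pos libraries 58.4, 56.3 and 59.0 M, and every set of 3 values below is in the order of replicates 1, 2 and 3. Levels are in CPM, read counts scaled to a common library size with TMM factors, and differences are log2 fold changes, CD101neg minus CD101pos, ± SE. Genes passed at an adjusted p under 0.05 in edgeR's quasi-likelihood test. Libraries of one number resembled each other across the sorts. Over 16575 genes, the deviations from the group means correlated at 0.44, 0.375 and 0.278 for equal numbers and at -0.31 to -0.101 for unequal ones. Deviations cancel within each group, so the negative values follow largely from the positive ones and add no evidence of pairing. The first principal component of the 6 libraries held 37.1% of the variance. It put both replicate 2 libraries at its upper end (30.1 and 82.6) and both replicate 1 libraries at negative values (-69.7 and -28). Replicate 3 was split, with CD101neg at -40.1 and CD101pos at 25.1. CD101pos lay above CD101neg within each number, so this component carried the sort as well as the number. Because of the correlations for equal numbers, these were also tested as pairs, in a fit with the replicate number as a block. Paired values are given as such beside the unpaired ones.

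The sort label was first checked against the gene it names. Cd101, an immunoglobulin-family surface protein, stood at 159, 185 and 156 CPM in CD101neg and at 451, 322 and 436 CPM in CD101pos libraries. The groups did not overlap, and the difference was -1.28 ± 0.23 (adjusted p = 0.0148) unpaired and -1.27 ± 0.16 (adjusted p = 6.48e-05) paired. Since Cd101 is the gene behind the sort, this is a check and not a result. Naive CD101pos libraries held 442, 355 and 327 CPM, within the zymosan CD101pos range and above every CD101neg library. All 6 libraries carried neutrophil transcripts, but at unequal levels that followed the replicate number. The 12 neutrophil markers together made 19680, 84860 and 35380 CPM in CD101neg and 32210, 86880 and 54010 CPM in CD101pos libraries. Replicate 2 was highest and replicate 1 lowest in both sorts, and within each number CD101neg was below CD101pos. Of these markers 8 were lower and 3 higher in CD101neg in all 3 pairs, where 23.4% and 22.8% of all genes were. Paired, 5 passed as lower and 2 as higher, where 5.98% and 5.05% of all genes did. Ly6g, the antigen of the sort, was at 6.78, 99.9 and 24.7 CPM in CD101neg and 10.6, 82.9 and 33.4 CPM in CD101pos libraries. Cybb, the gene that the CGD mice lack, was at 254, 261 and 274 CPM in CD101neg and 187, 126 and 205 CPM in CD101pos WT libraries; in CGD libraries its mean was 45.1 ± 4.66 and 32.6 ± 2.7 CPM (SD, n = 3), so reads of the gene were still counted there. In sorted bulk samples, fewer cells of a kind and less RNA per cell cannot be told apart.

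Compared without pairs, immature cells differed from mature ones mostly by higher expression. Of 16575 genes, 73 (0.44%) passed, of which 68 (0.41%) were higher in CD101neg cells and 5 (0.0302%) lower. The 68 had a median difference of 1.74, and 67 of them were past 2-fold. Among the CD101neg libraries, replicate 3 held the highest level in 64 of the 68 and replicate 2 the lowest in 57. Replicate 2 was also the CD101neg library with the highest sum of neutrophil markers. The same shares over all genes were not counted. In 72 of the 73 genes the groups did not overlap, where 12% of all genes tested had groups that did not overlap, 6.73% with CD101neg above and 5.22% with CD101neg below. The exception was Igha, at 3.1, 16.5 and 0 CPM in CD101neg and 0.0608, 0.0615 and 0.0181 CPM in CD101pos libraries. Paired, 1741 of 15791 genes (11%) passed, 797 (5.05%) higher and 944 (5.98%) lower, and all 73 unpaired genes were among them. Of the paired genes 373 were past 2-fold higher and 80 past 2-fold lower, so the larger differences lay on the higher side. With library size as the only scaling, the paired split was 989 higher and 329 lower, and the median over all genes was 0.132 unpaired, where it was 0.02 with TMM. The unpaired count depended on single libraries: it was 40, 400 and 14 without CD101neg replicates 1, 2 and 3, and 17, 16 and 3 without CD101pos replicates 1, 2 and 3. Of the 20 passing genes picked by the naming rule, 13, 20 and 5 kept their call without CD101neg replicates 1, 2 and 3, and 7, 7 and 2 without CD101pos replicates 1, 2 and 3. The paired count was 567 without replicate 1 and 307 without replicate 3 of WT. A fit of the 6 WT libraries alone, unpaired, called 0 genes with edgeR, with 1015 at an unadjusted p under 0.05, while DESeq2 called 323 in all 18 libraries.

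**Figure D1:**
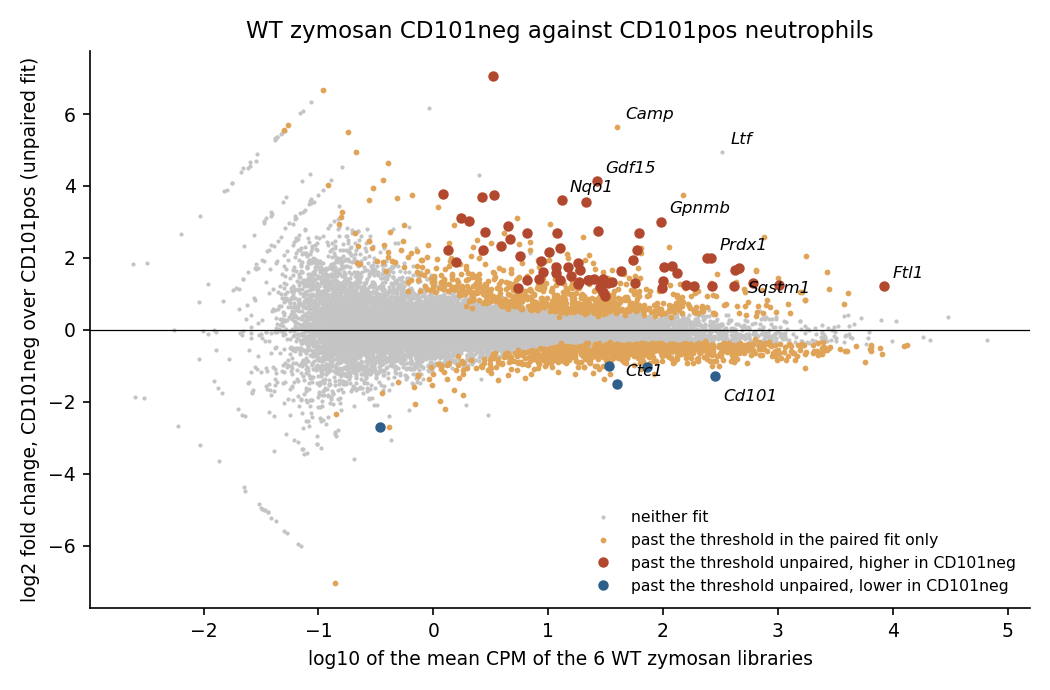
Log2 difference of CD101neg minus CD101pos (vertical axis) against the mean level over the 6 WT libraries (horizontal axis, log10 CPM) for every gene tested, with the 68 higher genes in red, the 5 lower genes in blue and genes that passed in the paired fit alone in orange. The unpaired genes lie mostly above the zero line.

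The oxidative stress genes of the NRF2 pathway had the largest share of genes past the threshold unpaired among the 28 process lists. Of 29 measured members, 6 passed unpaired and all 6 were higher in CD101neg cells; paired, 12 were higher and 2 lower, with a median paired difference of 0.34 against 0.01 over all genes. For this and every list below, the shares over all genes were 0.44% past the threshold unpaired, and 5.05% higher and 5.98% lower when paired. Without CD101pos replicate 3 the unpaired count fell to 2, and those were Nqo1 and Prdx1. These 2 genes passed in each of the 6 fits that left out a single library. Nqo1 is a quinone reductase and a textbook NRF2 target. It stood at 20.3, 13.6 and 39 CPM in CD101neg and at 1.84, 1.68 and 2.44 CPM in CD101pos libraries, a difference of 3.61 ± 0.43 (adjusted p = 0.000925). Prdx1, a peroxiredoxin that reduces hydrogen peroxide, stood at 362, 319.9 and 572 CPM in CD101neg and at 148, 77.1 and 88 CPM in CD101pos libraries, a difference of 1.999 ± 0.24 (adjusted p = 0.000925). For both genes the lowest CD101neg library was clearly above the highest CD101pos library, and CD101neg replicate 3 was the highest of all.

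Srxn1, sulfiredoxin, which restores overoxidised peroxiredoxin, was at 52.9, 41.8 and 102 CPM in CD101neg and 21.5, 17.3 and 24.8 CPM in CD101pos libraries (1.63 ± 0.30, adjusted p = 0.0185). Slc7a11, the cystine importer that feeds glutathione synthesis, differed by 1.30 ± 0.23 (adjusted p = 0.0149). The genes of the catalytic and modifier subunits of the rate-limiting enzyme of glutathione synthesis passed only when paired: Gclc differed by 1.83 ± 0.28 (adjusted p = 0.000313) and Gclm by 1.99 ± 0.26 (adjusted p = 9.89e-05). Txnrd1, thioredoxin reductase, differed by 1.20 ± 0.13 paired (adjusted p = 1.01e-05). Nfe2l2, the gene of NRF2 itself, did not pass (-0.17 ± 0.17 unpaired, adjusted p = 0.822), and Keap1, its inhibitor, was higher by 0.83 ± 0.21 paired (adjusted p = 0.0173). The members that were lower when paired were Gpx1 (-0.47), a glutathione peroxidase, and Mt1 (-0.58), a metallothionein.

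Further known NRF2 targets, a list put together after the values were seen, held 6 of 15 measured genes that passed unpaired, all higher. Abcc1, an exporter of glutathione conjugates, was at 46.4, 22.1 and 74.1 CPM in CD101neg and 9.98, 3.36 and 7.83 CPM in CD101pos libraries (2.75 ± 0.46, adjusted p = 0.0121). Ptgr1, a reductase of prostaglandins and reactive aldehydes, was at 8.53, 6.68 and 18.6 CPM in CD101neg and 2.19, 1.29 and 1.77 CPM in CD101pos libraries (2.68 ± 0.45, adjusted p = 0.0121). Both lost the call in 3 of the 6 fits that left out a library. Esd, an esterase that takes part in formaldehyde detoxification with glutathione, was at 362, 286 and 501 CPM in CD101neg and 96.1, 104 and 87.3 CPM in CD101pos libraries (1.999 ± 0.30, adjusted p = 0.00609), and kept the call in 5 of the 6.

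Promoters are shown for 4 genes of the antioxidant and lysosomal groups, to set the sequence that NRF2 and its MAF partners recognise beside the E-box. They were picked among promoters that held a match. Each run is the 250 bases before the annotated start, 5′ to 3′ on the gene's strand, from RefSeq, build GRCm38.p6. Capitals mark the core of the antioxidant response element, TGACNNNGC, or the E-box CACGTG, on either strand. The genes lie at chr4:116685349-116685598 (Prdx1, plus strand), chr3:122245307-122245556 (Gclm, plus strand), chr11:101069844-101070093 (Naglu, plus strand) and chr7:142387828-142388077 (Ctsd, minus strand).
Prdx1: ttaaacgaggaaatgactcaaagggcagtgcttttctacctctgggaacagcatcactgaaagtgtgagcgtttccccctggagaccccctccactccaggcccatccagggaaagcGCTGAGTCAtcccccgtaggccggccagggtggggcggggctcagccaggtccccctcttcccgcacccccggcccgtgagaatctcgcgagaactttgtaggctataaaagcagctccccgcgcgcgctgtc
Gclm: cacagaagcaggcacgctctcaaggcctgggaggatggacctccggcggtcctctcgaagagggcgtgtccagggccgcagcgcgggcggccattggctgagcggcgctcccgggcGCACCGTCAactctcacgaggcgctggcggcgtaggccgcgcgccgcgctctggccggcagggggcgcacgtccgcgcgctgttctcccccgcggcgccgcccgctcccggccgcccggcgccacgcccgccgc
Naglu: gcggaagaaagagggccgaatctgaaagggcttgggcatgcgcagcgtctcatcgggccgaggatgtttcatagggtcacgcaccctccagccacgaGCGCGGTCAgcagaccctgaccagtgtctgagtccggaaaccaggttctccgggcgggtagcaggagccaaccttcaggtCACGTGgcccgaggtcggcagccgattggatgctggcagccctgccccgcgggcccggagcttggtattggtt
Ctsd: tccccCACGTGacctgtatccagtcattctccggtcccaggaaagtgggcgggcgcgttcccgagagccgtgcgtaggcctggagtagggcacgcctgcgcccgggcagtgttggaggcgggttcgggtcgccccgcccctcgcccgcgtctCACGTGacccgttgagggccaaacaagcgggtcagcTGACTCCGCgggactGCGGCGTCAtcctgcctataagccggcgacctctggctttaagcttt
The element in Prdx1 begins at position -133 from the start and that in Gclm at -134. The one in Prdx1 also contains the AP-1 motif TGANTCA. In Naglu an element at -153 precedes an E-box at -73, and Ctsd holds 2 of each, the first at -62 and -245. The core was found in 7 of 25 promoters of the NRF2 list that could be matched (28%). It was as frequent in the lysosomal list (7 of 23, 30.4%) and in the chemoattractant receptor list (5 of 20, 25%). Among genes higher in CD101neg cells 8 of 53 held it (15.1%), and among all genes tested 1576 of 11376 (13.9%). The E-box was found in 11 of 53 promoters of the higher genes (20.8%), in 8 of 23 lysosomal promoters (34.8%) and in 1072 of 11376 overall (9.42%). In the other process lists with matched promoters its share ran from 0 of 34 (0%, interferon-stimulated) to 4 of 16 (25%, immediate early). Among genes higher in the paired fit 101 of 596 held it (16.9%), and among those lower 60 of 706 (8.5%). These are matches of letters, described without a test.

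Of 16 iron genes Hmox1 and Ftl1 passed unpaired, both higher. Hmox1, heme oxygenase 1, which opens the heme ring and frees its iron, stood at 476, 580.0 and 871 CPM in CD101neg and 176, 221 and 208 CPM in CD101pos libraries, a difference of 1.67 ± 0.25 (adjusted p = 0.00609). Blvrb, a biliverdin reductase of the antioxidant list, was at 24.5, 26.9 and 47.4 CPM in CD101neg and 11.9, 13.7 and 11.9 CPM in CD101pos libraries (1.39 ± 0.22, adjusted p = 0.00609). Each kept the call in 5 of the 6 fits without a library. Ftl1, the ferritin light chain, was at 10935, 9005 and 15380.0 CPM in CD101neg and 4709, 5393 and 5108 CPM in CD101pos libraries (1.22 ± 0.22, adjusted p = 0.0175), with groups that did not overlap and a call kept in 2 of those 6 fits. Its near-identical copies Ftl1-ps1 and Ftl1-ps2 passed too (1.26 and 1.39), so which copy the reads came from is uncertain. Fth1, the heavy chain, did not pass in either fit (0.37 ± 0.22, adjusted p = 0.611 unpaired and 0.125 paired). Paired, 3 of the 16 were higher and 3 lower; the lower ones were the iron exporter Slc40a1 (-0.43), haptoglobin (Hp, -0.63) and Steap4 (-0.86), a metalloreductase.

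**Figure D2:**
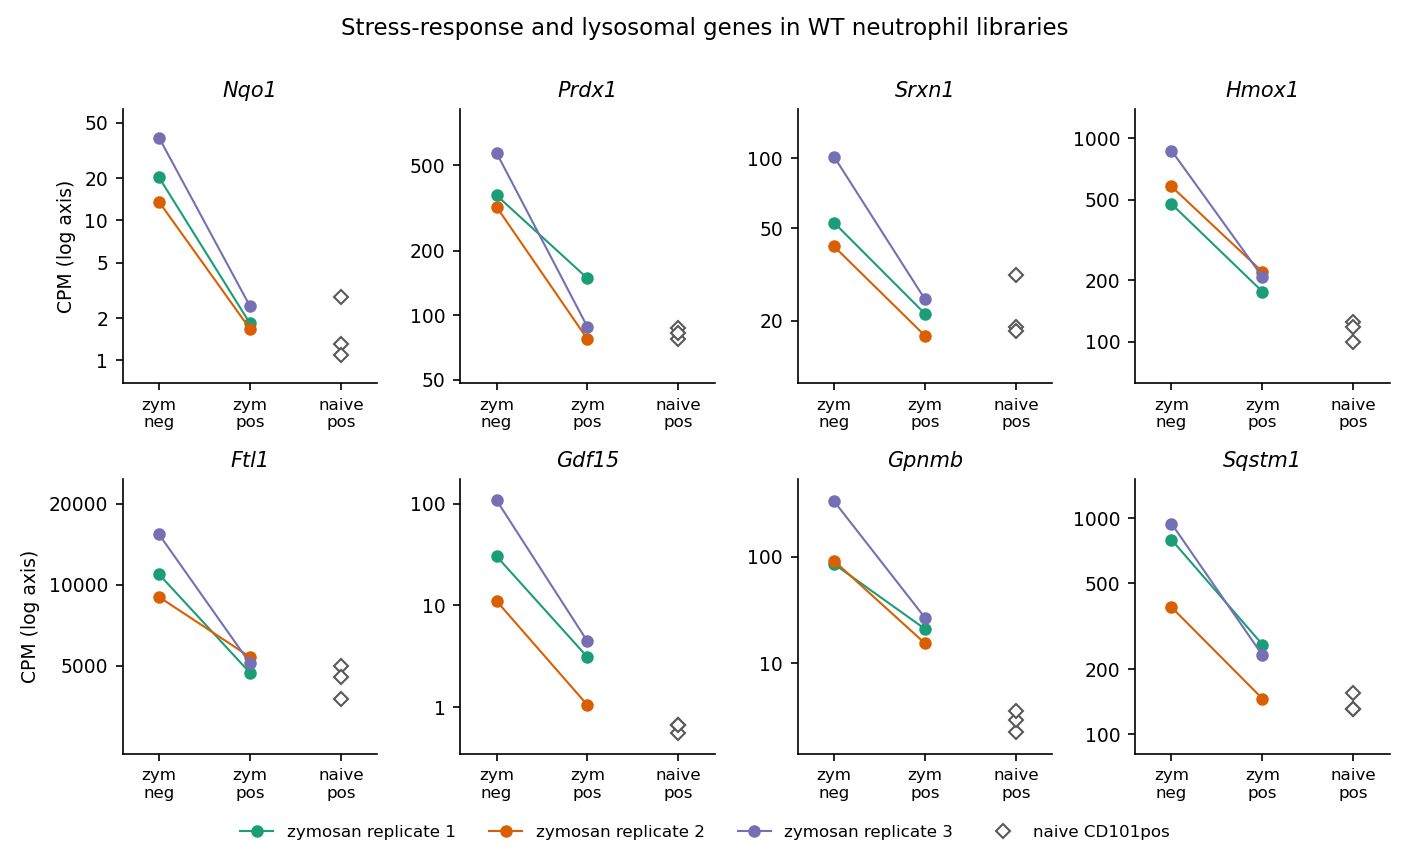
Level of 8 stress, iron and lysosomal genes in each library (CPM, log axis) in zymosan CD101neg, zymosan CD101pos and naive CD101pos cells, with lines joining replicates of one number and diamonds for naive libraries, which have no pair. In each panel the 3 CD101neg points lie above the 3 CD101pos points.

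Many lysosomal genes were higher in immature cells, most of them past the threshold only when paired. Of 31 measured members 1 passed unpaired (Npc1), while 17 were higher and 1 lower when paired, with a median paired difference of 0.60; without replicate 3 the count of higher members was 10. In 14 of the 31 all CD101neg libraries were above all CD101pos libraries, where the share of all genes was 6.73%. Npc1, which exports cholesterol from the lysosome, stood at 81.2, 47.2 and 132 CPM in CD101neg and 25.4, 14.4 and 27.6 CPM in CD101pos libraries (1.95 ± 0.42, adjusted p = 0.0462), and lost the call in 5 of the 6 fits without a library. The proteases Ctsb (1.10), Ctsz (1.14) and Ctsd (0.72), the membrane proteins Cd63 (1.57) and Lamp1 (0.95) and the proton pump subunit Atp6v1a (0.94) were higher in paired difference. Tfec, a member of the TFEB and MITF family, was higher by 1.59 ± 0.24 (adjusted p = 0.000312). The family members Tfeb, Tfe3 and Mitf passed in neither fit (0.10, 0.19 and 0.29 paired, adjusted p = 0.798, 0.462 and 0.303). Ctsa was the one member that was lower (-0.59).

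Genes of autophagy, nutrient sensing at the lysosome and lysosomal storage, gathered into a list after the values were seen, held 8 of 31 members that passed unpaired, all higher. Paired, 15 were higher and 0 lower, among the higher Gabarapl1 (1.07) and Optn (0.70). In 19 members CD101neg was higher in all 3 pairs and in 8 it was lower in all 3. The 8 included the autophagy genes Atg5 (-0.38 paired), Map1lc3b (-0.33), Becn1 (-0.28), Atg7 (-0.22) and Gabarapl2 (-0.18), which passed in neither fit. Sqstm1, the cargo receptor p62, stood at 795, 388 and 944 CPM in CD101neg and 260.4, 146 and 233 CPM in CD101pos libraries (1.73 ± 0.31, adjusted p = 0.0143). Gpnmb, a glycoprotein of lysosomes and the cell surface that marks lysosomal stress in macrophages, was at 85.5, 91.6 and 332 CPM in CD101neg and 21, 15.4 and 26.8 CPM in CD101pos libraries (3.01 ± 0.62, adjusted p = 0.0398). Replicate 3 set the size of that difference: without that CD101neg library it was 2.07. Fnip2, which acts with folliculin on the lysosome, was at 93.3, 57.1 and 169.7 CPM in CD101neg and 15.6, 9.44 and 24.5 CPM in CD101pos libraries (2.69 ± 0.48, adjusted p = 0.0149). Its client, the GTPase gene Rragd, differed by 2.73 ± 0.55 (adjusted p = 0.0358). Naglu, a hydrolase of heparan sulfate, was at 17.5, 12.4 and 33.8 CPM in CD101neg and 4.24, 3.93 and 4.95 CPM in CD101pos libraries (2.28 ± 0.47, adjusted p = 0.0398). Nceh1, which splits cholesterol esters, was at 80.8, 64.8 and 150.4 CPM in CD101neg and 19.9, 19.4 and 24 CPM in CD101pos libraries (2.23 ± 0.37, adjusted p = 0.0121). In the 6 fits without a library, the call was kept in 2 for Gpnmb, Fnip2 and Nceh1 and in 1 for Naglu.

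Some sterol genes were higher too. Of 22 cholesterol and lipid genes 1 passed unpaired, Srebf2, the factor that drives sterol synthesis, at 22.7, 21.1 and 36.8 CPM in CD101neg and 11.4, 9.16 and 11.3 CPM in CD101pos libraries (1.34 ± 0.26, adjusted p = 0.0257). Paired, 7 were higher and 0 lower, among them the synthesis enzymes Fdft1 (1.17), Sqle (1.04) and Hmgcs1 (0.72); without replicate 1 the count was 4 and without replicate 3 it was 2. On the lower side 2 had an unadjusted p under 0.05, and DESeq2 with pairs called 7 higher and 2 lower. Srebf2 kept its call in 2 of the 6 fits without a library.

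Macrophages also express many lysosomal and sterol genes, so their markers are given beside them. The 18 alveolar macrophage markers summed to 2312, 1398 and 1761 CPM in CD101neg and to 1847, 1253 and 1517 CPM in CD101pos libraries, CD101neg being higher within each number while the ranges overlapped. Abcg1 made most of that sum, with means of 1070 CPM in CD101neg and 866 CPM in CD101pos libraries, followed by Chil3 (328 and 265 CPM). The unpaired differences of 15 of the 18 were above 0, where 51.5% of all genes were. With edgeR 0 of the 18 passed unpaired (1 lower at an unadjusted p under 0.05, and 0 by DESeq2); paired, Atp6v0d2 and Olr1 were higher and Siglecf lower. CD101neg replicate 1 had the highest alveolar sum. The 15 markers of monocytes and interstitial macrophages summed to 1172, 1231 and 1318 CPM in CD101neg and to 1178, 1134 and 1357 CPM in CD101pos libraries. Csf1r (537 and 582 CPM) and Apoe (290 and 250 CPM) made most of that sum. Of the 15, 12 had an unpaired difference above 0. Unpaired, edgeR called 0 of them and DESeq2 called 1. Ccr2 was higher without overlap and passed when paired (1.33, adjusted p = 0.000415). No marker of either list was at 0 in any of the 6 libraries. Their part in the difference was not tested.

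The largest unpaired difference among the genes named by the size rule was in Gdf15, a stress-induced cytokine of the TGF-beta superfamily. It stood at 30.5, 11.1 and 109 CPM in CD101neg and 3.1, 1.04 and 4.43 CPM in CD101pos libraries, a difference of 4.13 ± 0.79 (adjusted p = 0.0292) unpaired and 3.81 ± 0.23 (adjusted p = 9.72e-09) paired. The groups did not overlap, yet the CD101neg libraries differed widely among themselves, and the unpaired call held only without CD101neg replicate 2 of the 6 fits without a library. Gas2l3, which links actin and microtubules, was at 37.8, 17.3 and 63.6 CPM in CD101neg and 3.91, 1.39 and 4.79 CPM in CD101pos libraries (3.55 ± 0.74, adjusted p = 0.0452). Tma16, a factor of ribosome assembly, was at 13.1, 5.45 and 31.2 CPM in CD101neg and 5.09, 1.88 and 4.08 CPM in CD101pos libraries (2.16 ± 0.45, adjusted p = 0.0398). Both lost the call in 5 of those 6 fits. Mreg, melanoregulin, a gene of lysosome-related organelles, passed only when paired, at 275, 108 and 445 CPM in CD101neg and 27, 6.66 and 28.1 CPM in CD101pos libraries (3.77 ± 0.21, adjusted p = 6.76e-09). Naive libraries held 1.23, 0.65 and 1.48 CPM of it. The small GTPase gene Rab15 (2.92 ± 0.21, adjusted p = 1.05e-07) and Lhfpl2 (2.65 ± 0.24, adjusted p = 2.32e-06) were also among the 12 largest paired differences of genes with 10 CPM or more in the higher group and 1 direction in all 3 pairs, predicted genes and pseudogenes left out.

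On the lower side, 5 genes passed unpaired. Beside Cd101 these were Ctc1, Sh3bp1, the pseudogene Gad1-ps and the predicted gene Gm28556. Ctc1, a component of the CST complex that maintains telomeres, stood at 21.9, 21.9 and 18.2 CPM in CD101neg and 75.6, 37.8 and 62.3 CPM in CD101pos libraries (-1.504 ± 0.26, adjusted p = 0.0126). Sh3bp1, a GTPase-activating protein, was at 20.7, 23.2 and 23.8 CPM in CD101neg and 44.3, 35.3 and 56 CPM in CD101pos libraries (-1.002 ± 0.21, adjusted p = 0.0454). Without a library the calls were kept in 3 of 6 fits for Ctc1, in 2 for Cd101 and in 1 for Sh3bp1. Paired, and within that same choice of genes, the largest lower differences after Ctc1 were in Ptpn22 (-1.31 ± 0.15, adjusted p = 2.2e-05), a phosphatase of immune receptor signalling, Cd101, and Eef2k (-1.26 ± 0.23, adjusted p = 0.00165), the kinase of elongation factor 2.

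Granule genes bear most directly on the stage of the cells, and they did not move as 1 block. Unpaired, 0 of 20 secondary and tertiary granule genes and 0 of 10 primary granule genes passed with edgeR (3 and 1 at an unadjusted p under 0.05; DESeq2 called 2 and 0). Paired, 3 secondary and tertiary genes were higher and 6 lower, but the lower count was 0 without replicate 1 or without replicate 3, and 1 with library size as the only scaling. Camp, the cathelicidin precursor of secondary granules, stood at 6.59, 195 and 30.7 CPM in CD101neg and 0.304, 3.61 and 0.831 CPM in CD101pos libraries. CD101neg was above CD101pos within each number, and the paired difference was 5.28 ± 0.23 (adjusted p = 3.15e-10). Unpaired it did not pass (5.63 ± 1.61, adjusted p = 0.183); CD101neg replicate 1 was close to the highest CD101pos library. Ngp, neutrophilic granule protein, was at 117, 3192 and 592 CPM in CD101neg and 39.7, 443 and 167 CPM in CD101pos libraries (2.07 ± 0.19 paired, adjusted p = 1.7e-06). Ltf, lactoferrin, was at 83.1, 1556 and 249.9 CPM in CD101neg and 30.3, 19.1 and 12.2 CPM in CD101pos libraries; all CD101neg libraries were higher, but the difference passed neither unpaired (4.94 ± 1.11, adjusted p = 0.0635) nor paired (adjusted p = 0.138).

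Other granule genes went the other way or did not pass. Mmp9, gelatinase of tertiary granules, was at 1505, 2724 and 1697 CPM in CD101neg and 2948, 2876 and 3063 CPM in CD101pos libraries (-0.64 ± 0.16 paired, adjusted p = 0.016). Hp, Pglyrp1, Lrg1, Slpi and Anxa1 were also lower when paired (-0.63, -0.61, -0.72, -0.41 and -0.51). Lcn2, lipocalin 2, was at 811, 4702 and 1748 CPM in CD101neg and 1200.3, 4121 and 2606 CPM in CD101pos libraries and did not pass (-0.32 ± 0.14 paired, adjusted p = 0.18). Of the primary granule genes, Prtn3 (adjusted p = 0.018), Prss57 (-1.11) and Padi4 (-0.57) were lower when paired and 0 were higher; the lower count was 1 without replicate 1, without replicate 3 or with library size as the only scaling.

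**Figure D3:**
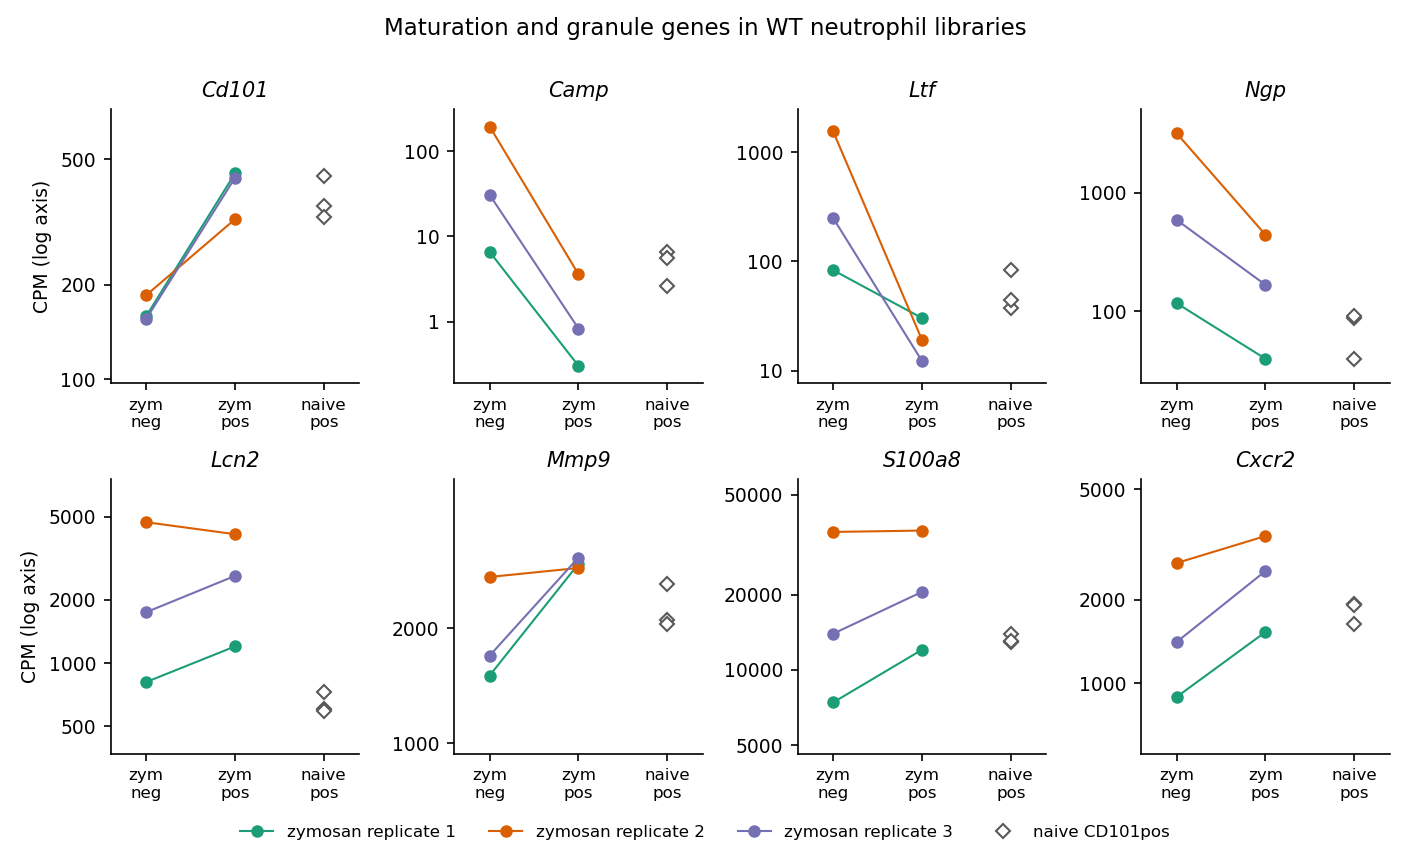
Level of 8 maturation genes in each library (CPM, log axis) in zymosan CD101neg, zymosan CD101pos and naive CD101pos cells, with lines joining replicates of one number and diamonds for naive libraries. Camp falls along each line from CD101neg to CD101pos while its level differs widely between numbers, and Cd101 rises along each line.

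Several surface markers of mature neutrophils were lower in CD101neg cells within pairs. Of 30 surface genes 1 passed unpaired (Cd101), and 7 were lower and 6 higher when paired. Cxcr2, the receptor that draws mature neutrophils out of the marrow, was at 891, 2709 and 1406 CPM in CD101neg and 1528, 3389.9 and 2535 CPM in CD101pos libraries (-0.66 ± 0.13, adjusted p = 0.00348). The G-CSF receptor gene Csf3r (-0.64 ± 0.13, adjusted p = 0.0044) and the Fc receptor gene Fcgr4 (-0.85 ± 0.14, adjusted p = 0.00078) were lower as well. Higher ones were Cd274, which encodes the checkpoint ligand PD-L1 (1.47 ± 0.14, adjusted p = 2.17e-06), the inhibitory Fc receptor gene Fcgr2b (1.25 ± 0.13, adjusted p = 7.87e-06) and Icam1 (0.82 ± 0.12, adjusted p = 0.000269). The lower count was 3 without replicate 1 and 2 without replicate 3. Of the cell cycle genes, 0 of 30 passed unpaired with edgeR (1 higher at an unadjusted p under 0.05) and 0 of the 26 tested in pairs (1 higher and 1 lower at an unadjusted p under 0.05). DESeq2 called 0 cell cycle genes with and without pairs. Of 28 granulopoiesis and neutrophil transcription factors, 0 passed unpaired with edgeR (3 higher at an unadjusted p under 0.05, and 1 by DESeq2), and 3 were higher and 0 lower when paired, namely Gfi1, Relb and Bhlhe40 (0.78). DESeq2 with pairs called 2 higher and 2 lower. Gfi1, a repressor needed for granulocyte development, was at 0.599, 0.115 and 0.346 CPM in CD101neg and 0.0152, 0 and 0 CPM in CD101pos libraries. The groups did not overlap and the paired test passed (adjusted p = 0.00208), but the counts were too few for a fold. Cebpe, the factor of granule gene expression, was at 6.18, 5.57 and 6.97 CPM in CD101neg and 8.25, 6.04 and 7.84 CPM in CD101pos libraries and did not pass (adjusted p = 0.538 paired).

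Many inflammatory cytokine genes were higher in immature cells when paired, while their levels also followed the replicate number. Of 35 measured cytokine and chemokine genes 0 passed unpaired with edgeR (8 higher and 2 lower at an unadjusted p under 0.05; DESeq2 called 1 and 1), and 15 were higher and 2 lower when paired, with a median paired difference of 0.41. The chemokine gene Ccl3 stood at 3829, 1092 and 3523 CPM in CD101neg and 957, 244 and 851 CPM in CD101pos libraries (2.06 ± 0.14, adjusted p = 2.94e-08). Replicate 2 was lowest in both sorts. Tnf, at 1976, 529 and 1897 CPM in CD101neg and 800.5, 236 and 589 CPM in CD101pos libraries, differed by 1.38 ± 0.14 paired (adjusted p = 4.96e-06). Ccl4 (1.54), Il1a (1.10), Csf1 (1.03), Il6 (1.06), Il10 (0.97) and the receptor antagonist gene Il1rn (0.96) were higher too. Il1b went the other way, at 10114, 10986 and 10875 CPM in CD101neg and 12814, 13820.0 and 16556 CPM in CD101pos libraries (-0.43 ± 0.13, adjusted p = 0.037). Genes of the NF-kB pathway, which drives many of these cytokines, were higher in 10 of 25 and lower in 0 when paired, and 0 passed unpaired with edgeR or DESeq2 (7 higher at an unadjusted p under 0.05). They included Relb (0.92), Traf1 (0.93), Tnip1 (0.73) and Tnfaip3 (0.49). Without replicate 1 or without replicate 3, 5 passed.

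Growth factor and matrix genes showed 12 of 22 higher and 2 lower when paired, with a median of 0.54, and 1 passed unpaired, Gdf15. Higher ones included the membrane protease gene Mmp14 (1.48), urokinase (Plau, 1.36), osteopontin (Spp1, 1.27) and fibronectin (Fn1, 1.19), and the lower ones were Mmp9 and Tgfbi (-0.69). Without replicate 3 the higher count was 6. Macrophages and stromal cells also make several of these transcripts.

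Interferon-stimulated genes had the largest share of lower members among the 28 lists. Of 43 measured 0 passed unpaired with edgeR or DESeq2 (2 lower at an unadjusted p under 0.05), and 22 were lower and 0 higher when paired, with a median of -0.45 paired and -0.40 unpaired. In 32 of 43 CD101neg was lower in all 3 pairs, where 23.4% of all genes were. Isg15, a ubiquitin-like protein induced by interferon, was at 70.9, 125 and 97 CPM in CD101neg and 143, 174 and 191 CPM in CD101pos libraries (-0.83 ± 0.14, adjusted p = 0.000987). The groups did not overlap. Irf7 (-0.66), Oasl2 (-0.67), Ifit2 (-0.83) and Ifitm1 (-0.78) were lower as well. Without replicate 3, 0 members passed and the median was -0.37, and without replicate 1 the count was 8. Lower paired calls over all genes fell as well, from 944 to 61 without replicate 3 and to 135 without replicate 1.

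Of 34 glycolysis and hypoxia genes 7 were lower and 1 higher when paired with edgeR, and 8 lower and 1 higher with DESeq2. Unpaired 0 passed with either tool (1 lower at an unadjusted p under 0.05). In the paired edgeR fit 0 of either kind passed without replicate 1 or without replicate 3. With library size as the only scaling 2 were lower and 3 higher. The glucose transporter gene Slc2a3 (-0.55), the lactate exporter gene Slc16a3 (-0.63) and Ldha (-0.46) were among the lower ones. Of 38 nuclear-encoded respiratory chain genes 2 were lower when paired with edgeR (Cox6a1 and Ndufb9) and 10 with DESeq2, and the median paired difference was -0.17. The edgeR count is near the share of all genes, 5.98%. In 22 of the 38 CD101neg was lower in all 3 pairs, where 23.4% of all genes were. In 11 all CD101neg libraries were below all CD101pos libraries, where 5.22% of all genes were. With edgeR 0 were lower without replicate 1, without replicate 3 or with library size as the only scaling, where the median was -0.043. Of 49 ribosomal protein genes 1 was lower when paired (Rps9), and of 13 mitochondrially encoded genes 0 passed. Of 9 genes on the NADPH oxidase list 0 passed unpaired with edgeR (2 higher at an unadjusted p under 0.05, and 2 by DESeq2). Paired, Cybb (0.63 ± 0.13, adjusted p = 0.00488) and the proton channel gene Hvcn1 (1.24) were higher. The 3 lower ones included Rac2 (-0.66) and Cyb5r4 (-0.47), a reductase gene of the list that encodes no oxidase subunit. The lower count was 0 without replicate 1 or without replicate 3, and 1 with library size as the only scaling.

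**Figure D4:**
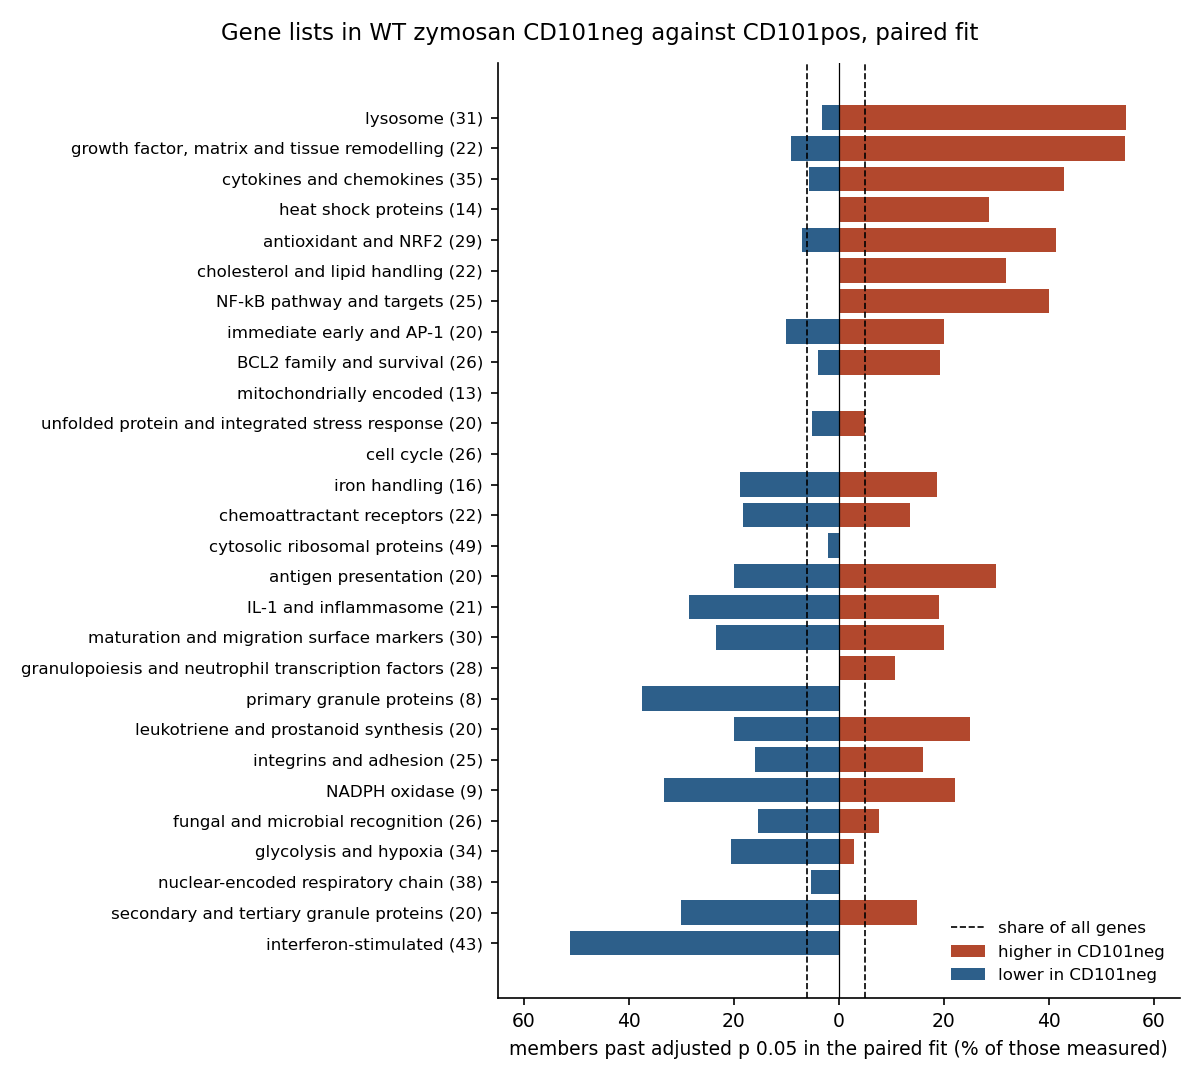
Share of measured members of each of 28 gene lists (horizontal axis, percent) that passed in the paired fit, higher (red) or lower (blue) in CD101neg cells, ordered by the median paired difference, with the share over all genes as dashed lines (5.05% higher, 5.98% lower). The lysosomal list lies at one end and the interferon-stimulated list at the other.

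Lymphocyte transcripts were present at low levels and moved between the sorts. The 14 T and NK cell markers summed to 28.5, 29.99 and 27.77 CPM in CD101neg and to 25.23, 20.83 and 16 CPM in CD101pos libraries, without overlap. The 10 B cell markers summed to 124.1, 151.2 and 143.9 CPM in CD101neg and to 163.1, 152.6 and 179.6 CPM in CD101pos libraries. Ighm, the mu heavy chain, made most of that sum and was lower in CD101neg when paired (-0.73), whereas the differences of the other 9 were above 0 and 6 of them did not overlap. Igkc, the kappa light chain, passed unpaired, at 18.5, 32.6 and 19.1 CPM in CD101neg and 7.32, 7.39 and 10.1 CPM in CD101pos libraries (1.504 ± 0.33, adjusted p = 0.0479), and 3 of the list were higher when paired. Eosinophil markers summed to 147.4, 373.6 and 215.3 CPM in CD101neg and to 324.4, 517.1 and 443.5 CPM in CD101pos libraries. Most of that sum came from Cd244a and Siglecf, both lower when paired (-1.02 and -1.04). The differences of the other 5 of the 7 tested were above 0, and Ear6, an eosinophil ribonuclease, was higher when paired (1.11). Unpaired, edgeR called 0 markers of T and NK cells, eosinophils, mast cells with basophils, dendritic cells, fibroblasts, epithelium, endothelium, erythroid cells or platelets, and DESeq2 called 2 of T and NK cells. Their part in the differences above was not tested.

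Mature neutrophils of naive mice give a further level for these genes. For 63 of the 68 higher genes all 3 naive libraries were below all 3 CD101neg libraries, where 14.8% of all genes tested were; the 68 were chosen for their high level in these CD101neg libraries, so nothing is read from that count. For 37 of them the naive libraries overlapped the zymosan CD101pos ones. Gdf15 was at 0.665, 0.557 and 0.67 CPM in naive libraries, Hmox1 at 99.9, 125 and 119 CPM and Gpnmb at 2.28, 2.94 and 3.54 CPM. Prdx1, at 77, 86.8 and 82.8 CPM, lay at the lower end of, or just below, the zymosan CD101pos range. Of the granule genes, Camp was at 6.51, 5.51 and 2.63 CPM and Ltf at 37, 83.5 and 44.6 CPM in naive libraries. The highest naive library of each was close to CD101neg replicate 1 (6.59 and 83.1 CPM). For the 5 lower genes all naive libraries were above all CD101neg libraries, where 14.4% of all genes were, and these too were chosen by their CD101neg level. Naive and treated mice also differed in sex and age, so these are levels without a test.

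In CGD mice, whose libraries share none with the WT comparison, the same sorts differed in 1218 genes (7.35%), 542 higher (3.27%) and 676 lower (4.08%) in CD101neg cells. Of the 73 WT genes, 61 had the same sign in CGD, and 28 passed in both, which is 38.4% of the WT genes and 2.3% of the CGD genes. Of those 28, 21 were higher in both, 4 lower in both and 3 opposite. The difference was smaller in CGD for 64 of the 68 genes higher in WT. Choosing genes by a large WT difference favours such a count. For neither the 61 nor the 64 was a share over all genes counted, so nothing is read from them. The test of the difference between genotypes was past the threshold in 141 genes (0.851%) over the whole table and in 12 of the 73; the 73 were chosen by their WT difference. The whole-table count ranged from 45, without WT CD101pos replicate 3, to 497, without WT CD101pos replicate 1. It was 2229 (14.1%) in the paired fit, 941 above (5.96%) and 1288 below 0 (8.16%), which was past the threshold in 41 of the 73.

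Of the 29 antioxidant genes, 5 passed the test of the difference between genotypes (Prdx1, Nqo1, Blvrb, Cat and Prdx4), and 17 in the paired fit. Prdx1 was higher in CD101neg cells of WT mice and lower in those of CGD mice (-0.90 ± 0.23, adjusted p = 0.0266), and the difference between genotypes was -2.90 ± 0.33 (adjusted p = 0.000968). Blvrb was likewise lower in CGD CD101neg cells (-1.06 ± 0.22, adjusted p = 0.0084; genotype difference -2.45 ± 0.31, adjusted p = 0.0011). Nqo1 differed by 0.67 ± 0.40 in CGD and did not pass there (adjusted p = 0.338; genotype difference -2.94 ± 0.57, adjusted p = 0.0196). Gdf15 differed by -0.03 ± 0.71 in CGD, and its genotype difference passed only in the paired fit (-4.15 ± 1.04, adjusted p = 0.0736 unpaired; -3.87, adjusted p = 2.4e-06 paired). Other genes kept their direction. Cd101 was lower in both genotypes (-0.77 ± 0.22 in CGD, adjusted p = 0.0442), Sqstm1 was higher in both (1.16 ± 0.30 in CGD, adjusted p = 0.027), and so was Srebf2 (1.68 ± 0.26 in CGD, adjusted p = 0.00127).

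**Figure D5:**
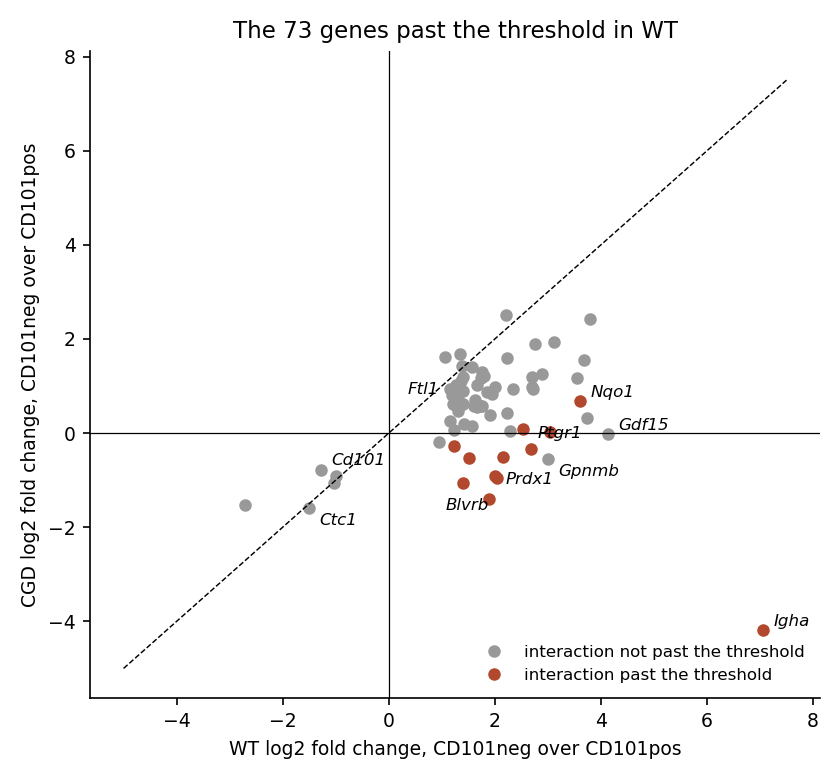
Log2 difference of CD101neg minus CD101pos in CGD (vertical axis) against that in WT (horizontal axis) for the 73 WT genes, with the 12 genes past the threshold for the difference between genotypes in red and a dashed line where both are equal. Most genes higher in WT lie below the line; the point at the far right is Igha, at or near 0 CPM in some libraries.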

How the data were processed

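RNA of sorted lung neutrophils was sequenced from total RNA libraries of the Clontech SMARTer kit, per the labels' protocols. The authors deposited raw read counts per gene in 1 table, for which the submitters' processing notes list featureCounts 1.4.6-p5, Subread and STAR 2.5.1a. Which build, annotation and strand setting the counting used is not stated there, so reads of antisense partners may be mixed. The table held 40757 lines; 276 repeated a gene ID and were counted once. Libraries of the 6 WT zymosan samples held 51.9 to 59.0 M counts.

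All 18 libraries, 6 groups of 3, entered 1 fit with edgeR 4.0.16 in R 4.3.3 (TMM, filterByExpr by group, robust quasi-likelihood test, two-sided, Benjamini-Hochberg adjustment over 16575 genes, threshold 0.05, 12 residual degrees of freedom, common biological coefficient of variation 33.0%). SE is the log2 fold change divided by the square root of F. The labels state no pairing, but equal WT numbers correlated above 0.1 in all 3 pairs (0.44, 0.375 and 0.278), so the paired fit took genotype and number as a block over the 12 zymosan libraries (15791 genes, 4 residual degrees of freedom). CGD numbers correlated at 0.201, 0.0129 and 0.223, which does not meet that rule, though the fit treats them as pairs too. On simulated counts with pair effects the unpaired fit recovered 24% of 2-fold and 86% of 4-fold changes, and the paired fit 79% and 97%, with 0% and 4.35% false calls. The simulated sorts of one number shared a level by construction, in CGD as well, and their dispersions came from the paired fit. The recovery therefore cannot tell whether the real sorts are pairs, and it says nothing on the paired calls if they are not.

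The comparison and the gene lists were chosen with earlier results of these data known. Named genes are the 12 largest passing differences in each direction with a mean of 10 CPM or more in the higher of both groups, with groups that do not overlap and without predicted genes and pseudogenes, up to 4 passing members of each list (or the 2 with the lowest p), Cd101 and Cybb. All other genes, those named from the paired fit included, and 2 lists (autophagy, further NRF2 targets) were chosen after their values were seen. Promoters came from RefSeq, build GRCm38.p6, matched by gene. Alternatives were other scalings, DESeq2 1.42.0, no count filter, fewer libraries, leaving out each library, and the block.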

Additional observations from a re-analysis of the deposited data

Results flagged for a closer look

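For 12 genes that the naming rule picks, the difference between CD101neg and CD101pos cells itself differed between genotypes (edgeR's quasi-likelihood test of the interaction, adjusted over all genes). Values are the CGD difference minus the WT difference, in log2. Those past the threshold in WT were the antioxidant and reductase genes Prdx1 at -2.90 (adjusted p = 0.000968), Blvrb at -2.45 (adjusted p = 0.0011), Nqo1 at -2.94 (adjusted p = 0.0196) and Ptgr1 at -3.01 (adjusted p = 0.0237). Tma16, a ribosome assembly factor, stood at -2.67 (adjusted p = 0.0484) and Igkc, the kappa light chain of B cells, at -2.03 (adjusted p = 0.047).

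The others did not pass in WT and were lower in CD101neg cells of CGD mice. C1qa and C1qb, complement genes of macrophages, had -3.70 (adjusted p = 0.001) and -3.59 (adjusted p = 0.00226). They differed by 0.21 ± 0.30 and 0.33 ± 0.33 in WT and by -3.49 ± 0.34 and -3.26 ± 0.37 in CGD. Fcgrt, the neonatal Fc receptor, had -2.57 (adjusted p = 0.0018), with 0.10 ± 0.24 in WT and -2.48 ± 0.25 in CGD. Cd2, a marker of T and NK cells, had -2.59 (adjusted p = 0.0148), Pf4, of platelets, had -2.53 (adjusted p = 0.0232) and Ccr7, of dendritic cells, had -2.50 (adjusted p = 0.0431). In WT they differed by 0.06 ± 0.33 (Cd2), 0.08 ± 0.36 (Pf4) and 0.38 ± 0.39 (Ccr7). Most of these 6 are markers of other cells, whose part was not tested.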

How the results depend on the processing

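Pairing changed most. The labels do not state it, and WT numbers passed the check. Unpaired, 73 genes passed; with the replicate block 1741 did over the 12 zymosan libraries and 2229 over the 6 WT libraries alone. For CGD the block gave 3924 in place of 1218, and for the difference between genotypes 2229 in place of 141. Of the members of the gene lists 11 passed unpaired, 201 with the block over 12 libraries and 233 over 6. The block kept the call of all 20 named genes that passed unpaired.

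DESeq2 called 323 genes in WT, 2134 in CGD, 580 between genotypes and 41 list members. Without a count filter these were 140 in WT, 327 between genotypes and 21 list members. Fitting the 6 WT libraries alone gave 0 genes (1015 at an unadjusted p under 0.05 with edgeR) and 0 list members; fitting the 12 zymosan libraries gave 655 in CGD and 62 between genotypes. The cause was not tested. Library size as the only scaling gave 49 in WT (48 higher, 1 lower), 1245 in CGD (82 higher, 1163 lower), 164 between genotypes (1 higher, 163 lower) and 1318 paired, and kept 12 of the 20 named calls. Leaving out 1 WT library gave 3 to 400 genes in WT, 45 to 497 between genotypes and 2 to 43 list members. The paired count was 567 without replicate 1, 1633 without replicate 2 and 307 without replicate 3. Of the 20 named genes that passed unpaired and the 24 named from the paired fit, 0 changed sign under the alternatives run for each. Genes at or near 0 CPM, such as Gfi1 and Igha, allow no firm fold at this depth.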

Other observations

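Lipid mediator genes split in the paired fit, with 5 of 20 higher and 4 lower in CD101neg cells; without replicate 1 there were 2 and 2, and without replicate 3 there were 0 and 2. Over all genes, 5.05% were higher and 5.98% lower in the paired fit. Lower were Alox5 (-0.70) and its activating protein gene Alox5ap (-0.63), which start leukotriene synthesis, and the cyclooxygenase gene Ptgs1 (-1.05). Higher were the prostaglandin D synthase gene Hpgds (1.87) and the prostaglandin E synthase gene Ptges (1.01). Hpgds stood at 3.14, 3.2 and 6.86 CPM in CD101neg and 2.19, 0.758 and 0.759 CPM in CD101pos libraries. Of 20 antigen presentation genes 6 were higher and 4 lower when paired (5 and 0 without replicate 1, 1 and 0 without replicate 3). The class II genes H2-Aa (0.61), H2-Ab1 (0.63) and Cd74 (0.69) were higher, while the immunoproteasome genes Psmb8 (-0.55) and Psmb9 (-0.74) and the costimulatory gene Cd86 (-0.58) were lower. The B cell marker Cd79a was higher too (0.87), and the part of B cells in the class II values was not tested.

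Of 26 genes of the BCL2 family and survival 5 were higher and 1 lower when paired, where 5.05% of all genes were higher and 5.98% lower; without replicate 1 or without replicate 3 there were 1 and 0. Bax, an effector of mitochondrial cell death, was at 82.2, 48.2 and 123 CPM in CD101neg and 41.4, 19.1 and 29.7 CPM in CD101pos libraries (1.45 ± 0.21, adjusted p = 0.000301). Of 21 IL-1 and inflammasome genes 4 were higher and 6 lower when paired; without replicate 1 there were 4 and 1, without replicate 3 there were 3 and 0, and with library size as the only scaling 5 and 1. The inflammasome genes Casp1 (-0.54) and Gsdmd (-0.57) and the decoy receptor gene Il1r2 (-0.91) were lower, whereas the adaptor gene Pycard was higher (0.72). Of 22 chemoattractant receptor genes 3 were higher and 4 lower when paired (2 and 1 without replicate 1, 1 and 0 without replicate 3), with Ccr2 (1.33) among the higher and Cxcr2 (-0.66), C5ar1 (-0.45) and Ccr1 (-0.52) among the lower ones.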
